A study of Homo sapiens with 13 samples.

Results

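The circadian clock genes PER1, PER2, PER3, CRY1, CRY2, NR1D1, NR1D2 and CLOCK and the clock repressors BHLHE40 and BHLHE41 were followed in SW480, a human colon cancer cell line, after 6 h with iron chelators. They are 10 of 18404 measured genes, taken by symbol, each by its row of highest mean signal. Each had exactly 1 transcript cluster, the set of probes that stands for a gene on the array. BHLHE40 and BHLHE41 were chosen by their measured log2 differences from the solvent, which run in opposite directions, so their differences from DMSO are a description without a test. The other 8 genes were listed by name. The groups were cells in OICR623, a compound known here only by its code name (n = 2), in Deferasirox (n = 3), in DFO (deferoxamine, n = 4) and in DMSO, the solvent control (n = 4). Deferasirox and DFO are iron chelators in clinical use. The labels give 10 mM OICR623, 50 mM Deferasirox, 100 mM DFO and 0.1 percent DMSO. These doses are high for cultured cells, no label settles whether another unit was meant, and they differ between the compounds. All groups are the same line, so they show 1 cell type without the timing signals of an animal, at 1 time point.

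The clock of mammalian cells is a loop of transcription factors. CLOCK, paired with BMAL1, binds short DNA sequences called E-boxes and switches on the PER and CRY genes, whose protein products return to the nucleus and block CLOCK and BMAL1. NR1D1 and NR1D2, known as REV-ERB proteins, repress BMAL1, and BHLHE40 and BHLHE41, known as DEC1 and DEC2, repress E-box genes by binding the same sequences. BHLHE40 is also known as a target of the hypoxia-inducible factors (HIF), which accumulate when their iron-dependent prolyl hydroxylases are deprived of oxygen or iron.

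The stretches upstream of BHLHE40 and BHLHE41 are shown because these genes were chosen for their opposite directions. Each holds the 250 bases before a RefSeq transcript start (build GRCh38.p14), and capitals mark ACGTG on either strand, a form of the core letters of the HIF response element. Other forms of that core, such as GCGTG, were not searched, so the marked places do not count all such elements. The E-box CACGTG contains ACGTG on both strands, so a marked CACGTG is both.
BHLHE40, chr3:4979187-4979436, plus strand: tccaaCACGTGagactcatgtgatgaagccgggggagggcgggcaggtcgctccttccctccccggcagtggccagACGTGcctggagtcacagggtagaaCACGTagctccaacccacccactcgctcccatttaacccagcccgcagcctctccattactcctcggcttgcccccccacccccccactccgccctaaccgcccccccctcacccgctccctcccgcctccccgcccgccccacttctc
BHLHE41, chr12:26125038-26125287, minus strand: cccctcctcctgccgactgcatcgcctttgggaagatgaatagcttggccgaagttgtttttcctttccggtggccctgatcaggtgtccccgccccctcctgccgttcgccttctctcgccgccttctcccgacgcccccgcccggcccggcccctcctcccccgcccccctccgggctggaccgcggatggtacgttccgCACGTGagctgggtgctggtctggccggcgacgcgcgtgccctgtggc
The BHLHE40 stretch had 3 marked places, which began 245, 174 and 149 bases before the transcript start. The BHLHE41 stretch had 1, an E-box that began 48 bases before it. For PER2, 30 bases are shown around CACGTT, a variant of the E-box known from the mouse Per2 promoter, which began 197 bases before a RefSeq transcript start that lies inside the gene (capitals mark CACGTT).
PER2, chr2:238288790-238288819, minus strand: ggcgcgcgcggtCACGTTttccactatgtg
Over the 14 RefSeq windows of the 10 genes, ACGTG was found on either strand in 9 windows of 9 genes, all but PER3. CACGTG was found in 4 of the 14 windows, of 4 genes (BHLHE40, BHLHE41, NR1D2 and PER1). CACGTT, which holds ACGTG on its other strand, was found in 5 windows of 5 genes (CLOCK, CRY1, CRY2, NR1D1 and PER2). Among 35116 such windows of 27305 genes, 18.5 percent held ACGTG, 6.34 percent CACGTG and 4.55 percent CACGTT. The D-box sequence TTATGTAA, of the kind that NFIL3 binds, was found in 2 of the 14 windows, of NR1D2 and PER3, against 0.834 percent of all windows. A further D-box form, TTATGCAA, was found in 1 window, of PER1, against 0.792 percent, and TTACGTAA was found in 0 of the 14 windows, against 0.105 percent. These matches describe the letters in these windows.

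RNA was hybridised to 13 Affymetrix Human Gene 1.0 ST arrays, and all values are log2 signals. Sorted by their median, the arrays formed 3 levels, each with more than 1 group. The high level (7.17 to 7.19) held the arrays DFO 1 and DMSO 1, and the low level (6.52 to 6.55) held Deferasirox 3, DFO 4 and DMSO 4. The other 8 arrays, 2 of each group, formed the middle level (6.64 to 6.69). Differences are therefore given from a limma fit to all arrays and genes that takes the level as a block. Adjusted p-values are Benjamini-Hochberg values over the 18404 genes, and a gene is called under 0.05. KRT8 and KRT18, keratins of simple epithelium, reached at least 12.5 and 12.8 on every array, and EPCAM at least 9.02. In contrast, 3 epithelial markers, KRT20, CDH1 and CDH17, lay under the array median on every array, as did all 5 endothelial, 4 of 5 leukocyte and 2 of 6 fibroblast markers. The leukocyte marker CD68 (8.47 to 9.66) and the fibroblast marker COL1A1 (7.60 to 8.08) lay above it on every array. Of the 11 epithelial markers, 0, 2 and 2 were called under OICR623, Deferasirox and DFO, against 0.734, 5.84 and 4.6 percent of all genes. KRT19 was higher by 0.33 under Deferasirox and 0.35 under DFO (limma adjusted p = 0.03 and 0.014), and CDX2, a factor of intestinal identity, fell by 0.77 under Deferasirox and 0.49 under DFO (limma adjusted p = 6.8e-04 and 0.0063). Without the block 0 of the 11 were called under any compound. Their part in the results was not tested. By limma, 0 of 6 fibroblast, 5 endothelial and 5 leukocyte markers were called in any compound, against the same shares of all genes. At most 2 of a list had an unadjusted p under 0.05. In lysed cultures, fewer cells of a kind and less RNA per cell cannot be told apart.

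BHLHE40 stood far higher with every compound. BHLHE40 (transcript cluster 8077441) had log2 signals of 10.80 and 10.70 in OICR623, 11.01, 10.97 and 11.03 in Deferasirox, 11.48, 10.99, 10.91 and 10.98 in DFO, and 10.07, 9.35, 9.22 and 9.36 in DMSO. All 9 compound arrays lay above all 4 DMSO arrays, and the highest value of DFO and of DMSO came from the high-level arrays. With the level as a block, BHLHE40 was higher by 1.43 under OICR623 (SE 0.07), a fold of 2.69. The difference was 1.67 under Deferasirox (SE 0.06, 3.17-fold) and 1.59 under DFO (SE 0.05, 3.02-fold). Set against the DMSO arrays of their own level, single arrays differed by 1.41 to 1.51 in OICR623, 1.67 to 1.73 in Deferasirox and 1.41 to 1.71 in DFO. Without the block the differences were 1.25, 1.51 and 1.59 for OICR623, Deferasirox and DFO, with SEs of 0.24, 0.21 and 0.19. The mean signal of BHLHE40 over all arrays was above that of 91 percent of the measured genes.

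BHLHE41 went the other way, by less. BHLHE41 (transcript cluster 7961891) had 7.81 and 7.88 in OICR623, 7.96, 8.03 and 7.92 in Deferasirox, 8.30, 8.03, 7.95 and 7.89 in DFO, and 8.47, 8.30, 8.38 and 8.12 in DMSO. The OICR623 and Deferasirox arrays lay below all DMSO arrays, and the DFO arrays overlapped with DMSO through DFO 1 of the high level and DMSO 4 of the low level. Compared within a level, all 9 compound arrays were below DMSO, by -0.53 to -0.46 in OICR623, -0.38 to -0.20 in Deferasirox and -0.39 to -0.17 in DFO. With the level as a block the difference was -0.45 for OICR623 (SE 0.06), a fold of 0.73. For Deferasirox it was -0.28 (SE 0.05) and for DFO -0.27 (SE 0.05), each a fold of 0.83. Without the block the differences were -0.47, -0.35 and -0.27, with SEs of 0.17, 0.15 and 0.14. Within the middle level alone they were -0.50, -0.34 and -0.35 (n = 2 arrays per group). After the mean of each level was subtracted, BHLHE40 and BHLHE41 had a Pearson r of -0.861 over the 13 arrays, which share the groups and so describe the same opposite steps.

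**Figure D1:**
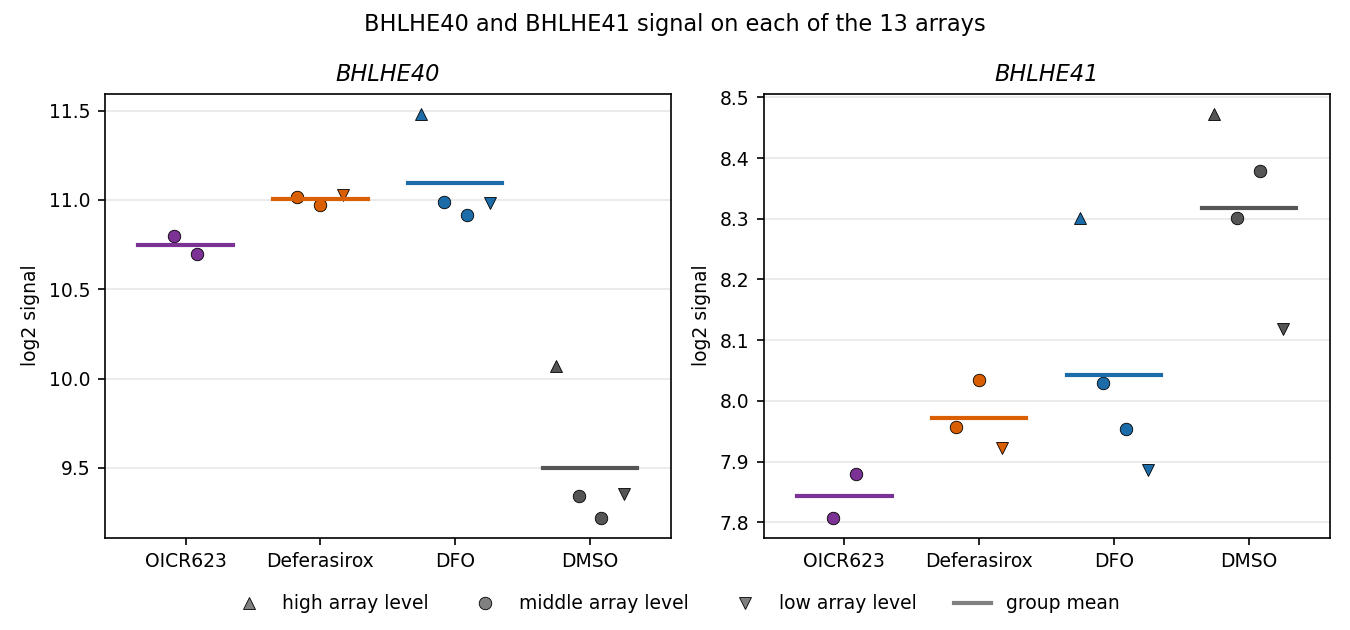
Log2 signal of BHLHE40 (left) and BHLHE41 (right) on each of the 13 arrays, by group. Points are arrays, their shape gives the level of the array median, and lines are group means. BHLHE40 sits between 10.70 and 11.48 on the 9 compound arrays and between 9.22 and 10.07 on the 4 DMSO arrays, while BHLHE41 sits between 7.81 and 8.30 against 8.12 and 8.47.

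Among the 8 clock genes that were listed by name, calls were few and most came with Deferasirox. Under OICR623, limma called 0 of 8, and 0 had an unadjusted p under 0.05, against 0.734 percent of all genes called. Under Deferasirox it called 2 of 8, PER2 and CRY2, against 5.84 percent of all genes, and 5 of 8 had an unadjusted p under 0.05. Under DFO it called 1 of 8, NR1D2, against 4.6 percent of all genes, and 2 of 8 had an unadjusted p under 0.05. The share of all genes at that unadjusted cut was not counted, so counts at it, here and elsewhere, are not read as an excess. Without the block, 0 of the 8 were called in any of these comparisons, against 7, 43 and 45 of all genes under OICR623, Deferasirox and DFO. The median difference of the 10 genes was -0.08, 0.15 and -0.04 under OICR623, Deferasirox and DFO, against 0.00 for all genes in each. Removing the block moved the median of all genes to -0.11 under OICR623 and -0.15 under Deferasirox, so differences without the block are read relative to those shifts.

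PER2, a repressor subunit of the clock, had the smallest adjusted p of the 8. PER2 (transcript cluster 8059996) had 8.31 and 8.24 in OICR623, 8.79, 8.82 and 8.60 in Deferasirox, 8.73, 8.45, 8.29 and 8.21 in DFO, and 8.68, 8.34, 8.35 and 8.07 in DMSO. The Deferasirox and DMSO arrays overlapped only through the array DMSO 1 of the high level, which lay above Deferasirox 3 of the low level. Each Deferasirox array exceeded the DMSO arrays of its own level, by 0.44 to 0.53. With the level as a block PER2 rose by 0.48 under Deferasirox (SE 0.05, 95 percent interval 0.38 to 0.59, 1.40-fold, limma adjusted p = 1.7e-04). It stayed called when each array was left out in turn, in the middle level alone and with each array centred on its median. Without any block the difference was 0.38 (SE 0.18, limma adjusted p = 0.91), and with the replicate number as block it was 0.29 (limma adjusted p = 0.24). In that block Deferasirox 1 and Deferasirox 3 share a number with DMSO arrays of another level. Under the other compounds PER2 did not pass: the difference was -0.05 for OICR623 (95 percent interval -0.17 to 0.07, limma adjusted p = 0.84) and 0.06 for DFO (-0.03 to 0.16, limma adjusted p = 0.59).

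PER1 and PER3, the other period genes, were not called under any compound. PER1 (transcript cluster 8012349) had 7.66 and 7.79 in OICR623, 7.84, 8.14 and 7.76 in Deferasirox, 7.56 to 8.30 over the 4 DFO arrays and 7.51 to 8.35 over the 4 DMSO arrays. The groups overlapped, and the level-blocked difference was largest under Deferasirox, at 0.16 (95 percent interval 0.0049 to 0.32, limma adjusted p = 0.26). For OICR623 it was -0.11 (-0.29 to 0.08) and for DFO -0.08 (-0.22 to 0.06). PER3 (transcript cluster 7897378) had 7.93 and 7.90 in OICR623, 8.18, 8.19 and 7.78 in Deferasirox, 7.73 to 8.44 in DFO and 7.75 to 8.41 in DMSO. Its groups overlapped as well, with a difference of 0.13 under Deferasirox (limma adjusted p = 0.29) and -0.10 under both OICR623 and DFO (limma adjusted p = 0.72 and 0.42).

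The cryptochromes CRY1 and CRY2, the partners of the PER proteins in repression, also lay highest in Deferasirox once the level was taken into account. CRY2 (transcript cluster 7939595) had 7.69 and 7.70 in OICR623, 7.84, 7.97 and 7.65 in Deferasirox, 8.24, 7.64, 7.71 and 7.53 in DFO, and 8.24, 7.72, 7.64 and 7.55 in DMSO. Pooled over levels the groups overlapped, and within a level each Deferasirox array exceeded DMSO, by 0.10 to 0.29. CRY2 rose by 0.19 under Deferasirox (SE 0.05, 1.14-fold, limma adjusted p = 0.047). This call was lost on leaving out any 1 of the 13 arrays (limma adjusted p 0.059 to 0.16), and without the block the difference was 0.03 (limma adjusted p = 0.96). CRY1 (transcript cluster 7966052) had 8.03 and 7.79 in OICR623, 8.21, 8.20 and 7.98 in Deferasirox, 9.11, 7.93, 7.96 and 7.89 in DFO, and 9.19, 7.97, 7.91 and 7.80 in DMSO. The high-level arrays DFO 1 and DMSO 1 stood more than 1 log2 unit above the rest of their groups. The CRY1 difference was 0.22 under Deferasirox (95 percent interval 0.08 to 0.36, limma adjusted p = 0.067), and it passed the threshold without OICR623 1 or without OICR623 2 (limma adjusted p = 0.025 each). Without the block it was -0.09, against a median of -0.15 for all genes. Under OICR623 and DFO, CRY1 differed by -0.05 and 0.0037, and CRY2 by -0.0011 and -0.0061.

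NR1D1 and NR1D2, the repressors of BMAL1, did not follow each other. NR1D2 (transcript cluster 8078272) had 9.32 and 9.14 in OICR623, 9.22, 9.19 and 9.03 in Deferasirox, 10.24, 9.06, 8.99 and 8.95 in DFO, and 10.31, 9.41, 9.32 and 9.17 in DMSO. Pooled over levels the groups overlapped, and within a level all 9 compound arrays lay below DMSO. NR1D2 fell by 0.24 under DFO (SE 0.06, 95 percent interval -0.37 to -0.12, fold 0.85, limma adjusted p = 0.035). Within levels the DFO difference was -0.07 in the high, -0.34 in the middle and -0.22 in the low level. The call did not hold without the block or with the replicate number as block over all arrays (limma adjusted p = 1 in both), nor with that block on the 8 DFO and DMSO arrays alone (limma adjusted p = 0.082). It was also lost on leaving out any 1 of DFO 2, DFO 3, DFO 4, DMSO 2, DMSO 3, DMSO 4 or the 3 Deferasirox arrays (limma adjusted p 0.055 to 0.12). For OICR623 NR1D2 differed by -0.10 (limma adjusted p = 0.74) and for Deferasirox by -0.13 (limma adjusted p = 0.32). NR1D1 (transcript cluster 8014956) had 8.78 and 8.85 in OICR623, 8.97, 9.13 and 8.74 in Deferasirox, 8.70 to 9.51 in DFO and 8.67 to 9.54 in DMSO. The groups overlapped, and its differences of -0.10 for OICR623, 0.12 for Deferasirox and 0.01 for DFO did not pass (limma adjusted p = 0.64, 0.3 and 0.95).

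CLOCK, the activator, was below DMSO on average with each compound without passing the test. CLOCK (transcript cluster 8100428) had 9.60 and 9.46 in OICR623, 9.37, 9.42 and 8.99 in Deferasirox, 10.17, 9.47, 9.35 and 9.02 in DFO, and 10.14, 9.56, 9.65 and 9.33 in DMSO. The level-blocked difference was -0.22 under Deferasirox (95 percent interval -0.36 to -0.07, limma adjusted p = 0.093). It was -0.07 under OICR623 (-0.24 to 0.10, limma adjusted p = 0.83) and -0.17 under DFO (-0.30 to -0.04, limma adjusted p = 0.17). Each of the 3 Deferasirox arrays and both OICR623 arrays lay below the DMSO arrays of their level, and 3 of 4 DFO arrays did. The Deferasirox difference passed without DFO 1 or without DMSO 1 (-0.25, limma adjusted p = 0.039 each).

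**Figure D2:**
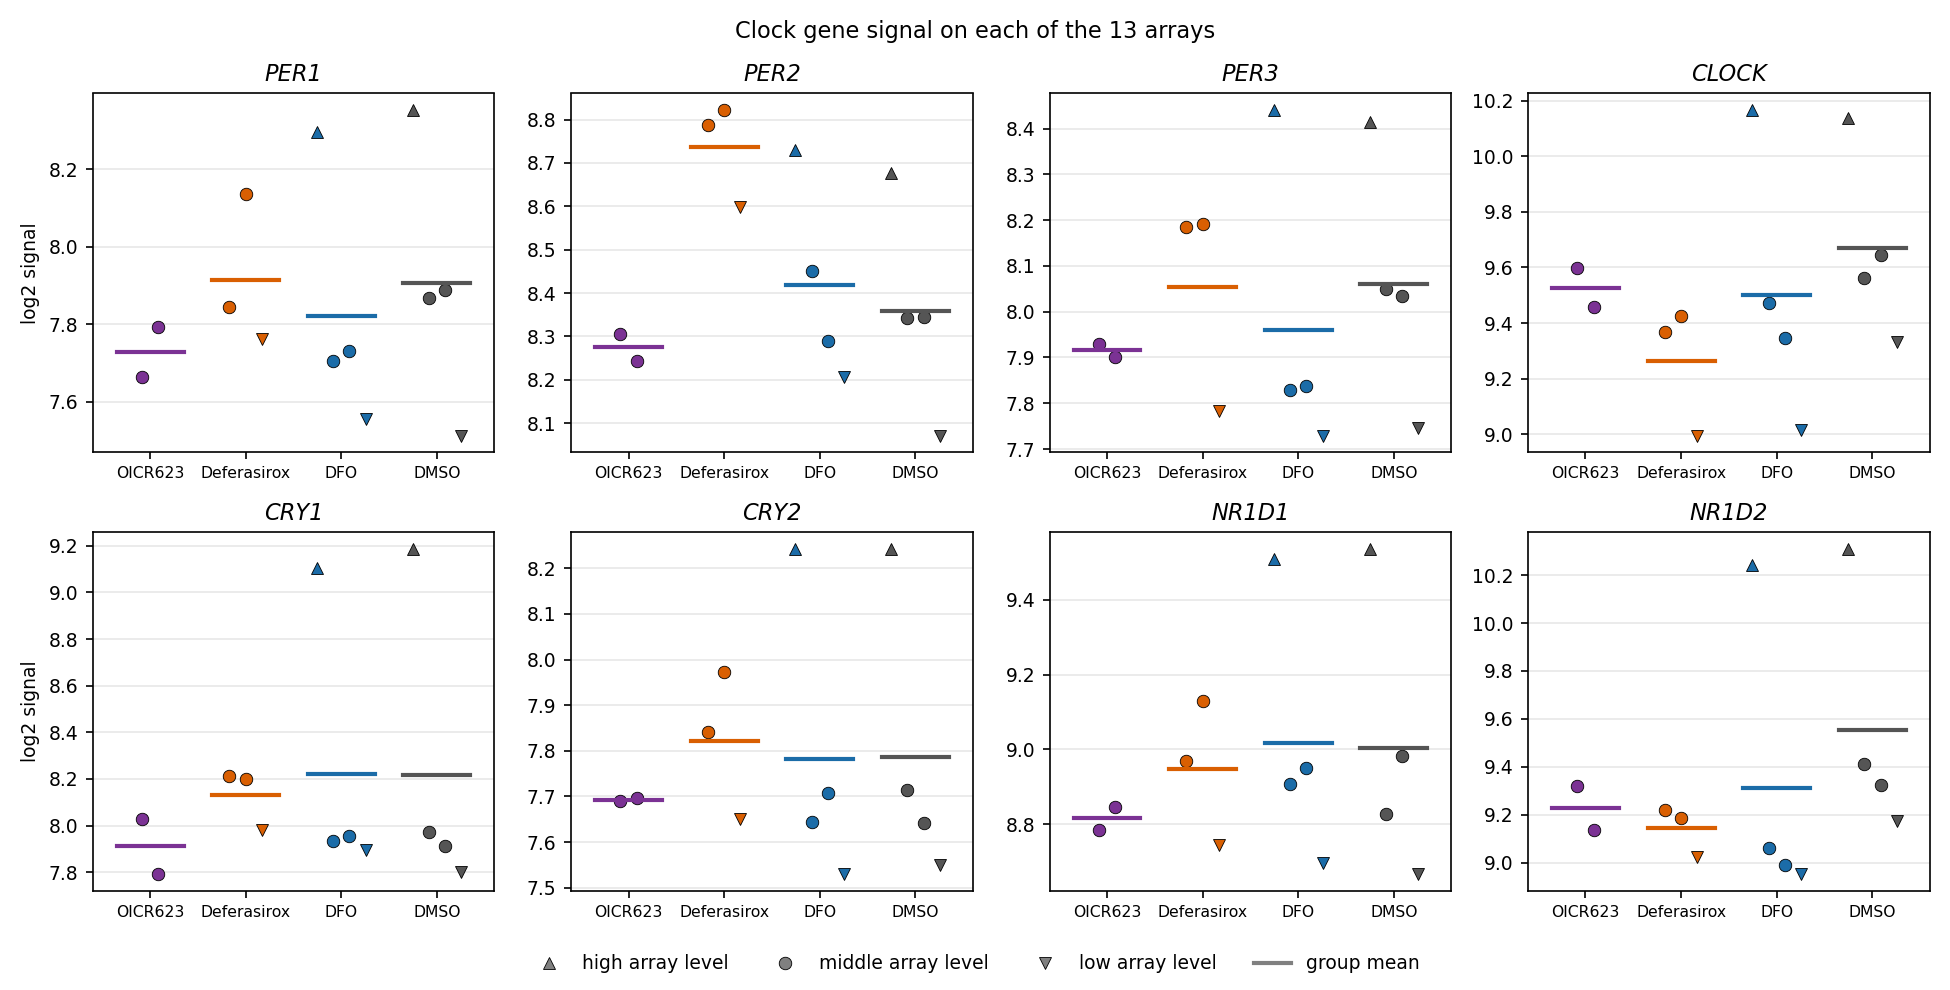
Log2 signal of the 8 clock genes listed by name on each of the 13 arrays, by group, with the shape of a point for the level of its array median and a line for the group mean. The high-level arrays DFO 1 and DMSO 1 lead their groups in every panel, and for PER2 the Deferasirox arrays (8.60 to 8.82) stand above all DMSO arrays but DMSO 1 (8.68).

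**Figure D3:**
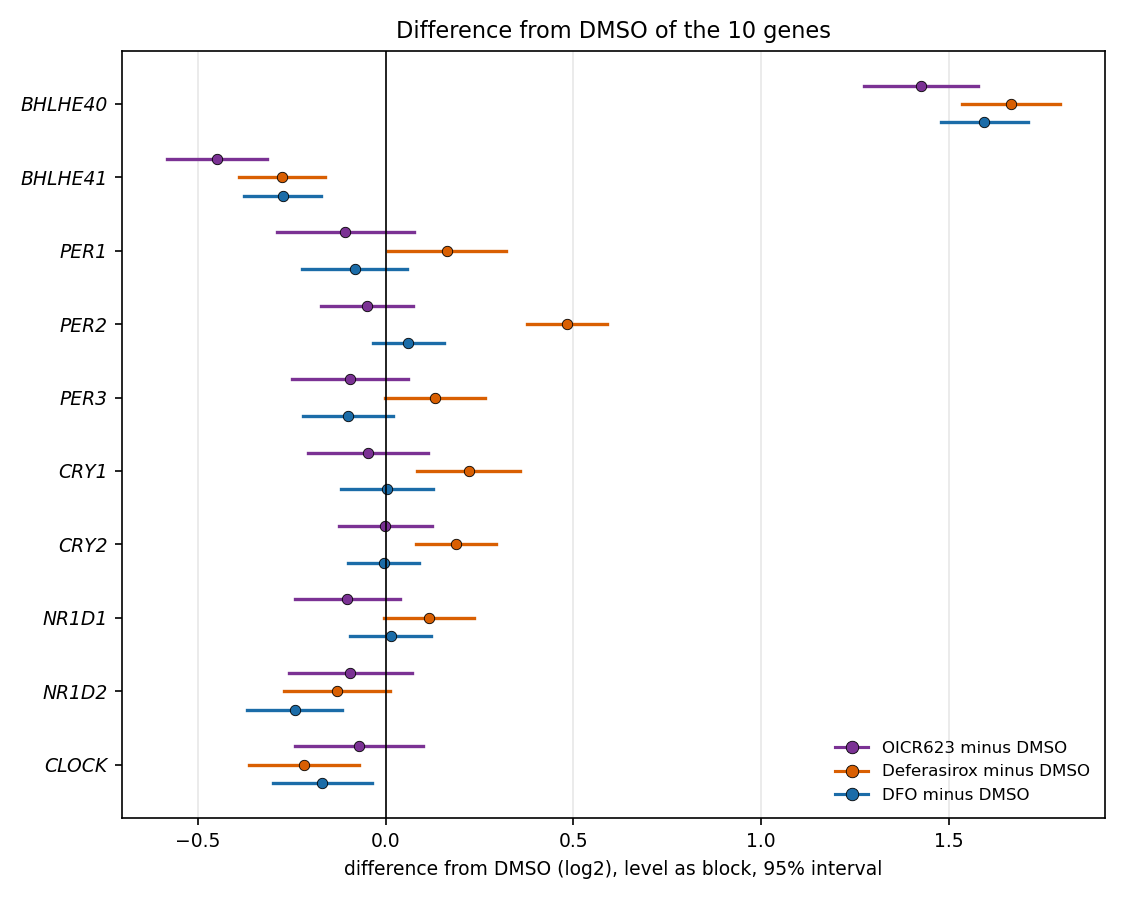
Difference from DMSO of each of the 10 genes on the log2 scale, with the array level as block; points are estimates and bars 95 percent intervals. BHLHE40 lies at 1.43, 1.67 and 1.59 for OICR623, Deferasirox and DFO, BHLHE41 at -0.45, -0.28 and -0.27, and PER2 under Deferasirox at 0.48.

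Between compounds, whose doses differed, PER2 was the gene of the 10 that was called. In OICR623 against Deferasirox, 1 of the 10 was called, against 0.0869 percent of all genes, and PER2 was lower by 0.53 (difference -0.53, SE 0.06, limma adjusted p = 0.009). In Deferasirox against DFO, 1 of the 10 was called, against 0.0435 percent of all genes, and PER2 was higher by 0.42 (SE 0.05, 1.34-fold, limma adjusted p = 0.01). Both rest on the same 3 Deferasirox arrays. The first was lost without Deferasirox 1, OICR623 1 or OICR623 2 (limma adjusted p 0.07 to 0.08), and the second without any 1 Deferasirox array or without DFO 4 (limma adjusted p 0.053 to 0.15). Within the middle level alone the differences were -0.53 (limma adjusted p = 0.083) and 0.43 (limma adjusted p = 0.54), and without the block -0.46 and 0.32 (limma adjusted p = 1 and 0.87). In OICR623 against DFO, limma called 0 of the 10, against 0.168 percent of all genes, and 2 of the 10, BHLHE40 and BHLHE41, had an unadjusted p under 0.05. BHLHE40 differed by -0.17 there (95 percent interval -0.32 to -0.02, limma adjusted p = 0.83) and BHLHE41 by -0.17 (-0.31 to -0.04, limma adjusted p = 0.72). Against Deferasirox, OICR623 gave -0.24 for BHLHE40 (-0.40 to -0.09, limma adjusted p = 0.34) and -0.17 for BHLHE41 (-0.31 to -0.04, limma adjusted p = 0.46). Deferasirox against DFO gave 0.07 for BHLHE40 (-0.06 to 0.20) and -0.0026 for BHLHE41 (-0.12 to 0.11). An unadjusted limma p under 0.05 was found for 6 of the 8 clock genes, BHLHE40 and BHLHE41 in OICR623 against Deferasirox, and for 5 of the 8 clock genes in Deferasirox against DFO. After adjustment over all genes the differences of genes other than PER2 between compounds did not pass, which does not show that the compounds act alike.

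The order of the level-adjusted means put Deferasirox at the top for BHLHE40, all 3 PER genes, both CRY genes and NR1D1, 7 of the 10. These orders rest on the same 3 Deferasirox arrays. The share of all genes with Deferasirox at the top was not counted, so the tally is not read as an excess. DMSO was at the top for BHLHE41, NR1D2 and CLOCK. For BHLHE40 the order ran Deferasirox, DFO, OICR623 and DMSO, and the first 2 steps, of 0.07 and 0.17, did not pass (limma adjusted p = 0.75 and 0.83), while the step to DMSO was 1.43. For BHLHE41 it ran DMSO, DFO, Deferasirox and OICR623, with steps of 0.27, 0.0026 and 0.17. For PER2 the step from Deferasirox to DFO was 0.42, and those on to DMSO (0.06) and OICR623 (0.05) did not pass. In the other 7 genes 1 step between neighbours passed, that of CRY2 between Deferasirox and DMSO. PER2 was most alike to CRY1 and CRY2 among the 10 over the level-centred arrays, with a Pearson r of 0.857 and 0.837 (n = 13 arrays that share the groups). CRY1 and CRY2 had an r of 0.802, and BHLHE40 had -0.743 with CLOCK and -0.728 with NR1D2.

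The partners of these genes were described from a list of 12 other core clock and D-box genes, of which 11 were measured. Under OICR623, limma called 0 of 11, against 0.734 percent of all genes, and 2 had an unadjusted p under 0.05. Under Deferasirox 1 was higher, NFIL3, and 1 lower, BMAL1, against 5.84 percent of all genes called. Under DFO 1 was higher, NFIL3, against 4.6 percent. With either Deferasirox or DFO 5 of the 11 had an unadjusted p under 0.05. The list's median difference was 0.03, 0.06 and 0.06 under OICR623, Deferasirox and DFO, against 0.00 for all genes. None of the 11 was called without the block.

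BMAL1, the partner of CLOCK and target of the NR1D repressors, had 9.50 and 9.32 in OICR623, 9.20, 9.06 and 9.01 in Deferasirox, 10.20, 9.36, 9.23 and 9.20 in DFO, and 10.29, 9.56, 9.37 and 9.46 in DMSO. The Deferasirox arrays lay below all DMSO arrays, and the others overlapped with DMSO. BMAL1 fell by 0.36 under Deferasirox (SE 0.07, fold 0.78, limma adjusted p = 0.011), against -0.06 under OICR623 (limma adjusted p = 0.87) and -0.17 under DFO (limma adjusted p = 0.18). The call was lost without Deferasirox 2 (limma adjusted p = 0.053), Deferasirox 3 (0.074) or DMSO 4 (0.06). It was also lost in the middle level alone (limma adjusted p = 0.2) and with each array centred on its median (limma adjusted p = 0.23). Without the block the difference was -0.58 (limma adjusted p = 0.91), against a median of -0.15 for all genes. NFIL3, a repressor that competes with DBP and TEF at D-boxes, had 8.54 and 8.35 in OICR623, 8.67, 8.62 and 8.41 in Deferasirox, 9.29, 8.63, 8.76 and 8.34 in DFO, and 9.12, 7.93, 7.68 and 7.34 in DMSO. All compound arrays lay above the DMSO arrays of their level, and DMSO 1 lay above all other arrays but DFO 1. NFIL3 rose by 0.82 under Deferasirox (SE 0.14, 1.77-fold, limma adjusted p = 0.0046) and by 0.74 under DFO (SE 0.12, 1.67-fold, limma adjusted p = 0.0053). Under OICR623 the difference was 0.59 (SE 0.16, limma adjusted p = 0.17). With the replicate number as block the DFO call was lost, both over all arrays (limma adjusted p = 0.31) and on the 8 DFO and DMSO arrays alone (limma adjusted p = 0.062). Without the block the Deferasirox difference was 0.55 (limma adjusted p = 0.91). With each array centred on its median both calls were lost (limma adjusted p = 0.24 for Deferasirox and 0.14 for DFO). Both were kept in the middle level alone. The D-box activators DBP and TEF were not called. DBP differed by -0.11, -0.14 and -0.04 under OICR623, Deferasirox and DFO, and TEF by 0.21, 0.17 and 0.12.

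**Figure D4:**
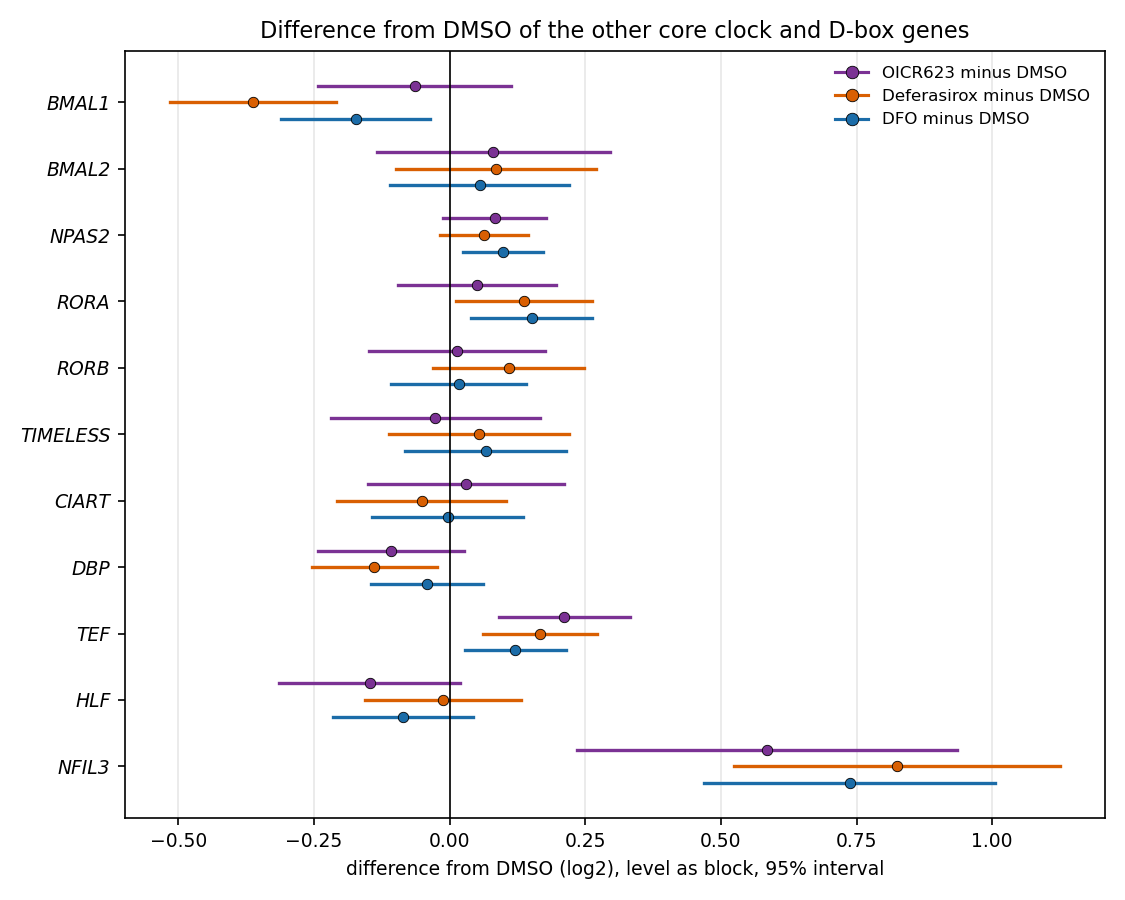
Difference from DMSO of the 11 measured genes of the other core clock and D-box list on the log2 scale, with the array level as block; points are estimates and bars 95 percent intervals. NFIL3 lies at 0.59, 0.82 and 0.74 for OICR623, Deferasirox and DFO, and BMAL1 at -0.06, -0.36 and -0.17.

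Genes that act on the clock proteins or share their control were counted in the same way. Of 18 clock modifiers, such as the casein kinases that mark PER proteins for decay, 14 were measured. By limma 0 of the 14 were called under each compound, against 0.734, 5.84 and 4.6 percent of all genes under OICR623, Deferasirox and DFO. An unadjusted p under 0.05 was found for 1, 1 and 2 of them. Of 10 measured serum and cAMP responsive genes, a class that includes inputs to PER1, 0, 2 and 3 were called under OICR623, Deferasirox and DFO, all higher, against 0.734, 5.84 and 4.6 percent of all genes. DUSP1, a phosphatase of MAP kinases, rose by 0.69 under Deferasirox (limma adjusted p = 9.3e-04) and by 0.78 under DFO (limma adjusted p = 1.8e-04, and 0.26 with the replicate number as block over all arrays). Of 4 measured glucocorticoid responsive genes 1, 2 and 1 were called, against the same shares of all genes. SGK1, a kinase, rose by 0.66, 0.86 and 0.62 under OICR623, Deferasirox and DFO (limma adjusted p = 0.01, 1.4e-04 and 5.0e-04, and 0.11 for DFO with the replicate number as block over all arrays). The OICR623 call of SGK1 was lost without OICR623 2 (limma adjusted p = 0.11). TSC22D3, known as GILZ, fell by 0.30 under Deferasirox (limma adjusted p = 0.042), a call lost without any 1 of OICR623 1, OICR623 2, Deferasirox 1, Deferasirox 3, DFO 2, DMSO 2, DMSO 3 or DMSO 4 (limma adjusted p 0.051 to 0.19). None of these serum, cAMP or glucocorticoid responsive genes was called without the block. With each array centred on its median the SGK1 call under OICR623 and the TSC22D3 call were lost as well (limma adjusted p = 0.069 and 0.85).

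BHLHE40 and BHLHE41 belong to the bHLH-Orange family of repressors, and 1 of the 11 other members, HEY2, was called under each compound, against 0.734, 5.84 and 4.6 percent of all genes under OICR623, Deferasirox and DFO. HEY2, a Notch target, had 8.48 and 8.47 in OICR623, 8.48, 8.67 and 8.15 in Deferasirox, 8.40, 8.36, 8.50 and 8.05 in DFO, and 8.87, 9.02, 8.95 and 8.80 in DMSO. Every compound array lay below every DMSO array. HEY2 fell by 0.54 under OICR623 (SE 0.08, limma adjusted p = 0.011), by 0.47 under Deferasirox (SE 0.07, limma adjusted p = 0.0021) and by 0.58 under DFO (SE 0.06, limma adjusted p = 2.4e-04). Without the block the differences were -0.44, -0.48 and -0.58 and none was called (limma adjusted p = 1, 0.91 and 0.46), and the OICR623 call was lost without either of its arrays (limma adjusted p = 0.1 and 0.096). With each array centred on its median HEY2 was not called under any compound (limma adjusted p = 0.99, 0.97 and 0.29). In the middle level alone the OICR623 and Deferasirox calls were lost (limma adjusted p = 0.065 and 0.064), and the DFO call was kept. With the replicate number as block the DFO difference had a limma adjusted p of 0.12 over all arrays and 0.0075 on the 8 DFO and DMSO arrays alone. Over all 11, the median difference was 0.02, 0.02 and 0.04.

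Since BHLHE40 is a known HIF target, the HIF genes are set beside it. By limma, 0 of the 5 HIF subunit genes were called under any compound, with at most 1 at an unadjusted p under 0.05. Of all genes, 0.734, 5.84 and 4.6 percent were called under OICR623, Deferasirox and DFO. HIF1A differed by -0.03, 0.0016 and -0.07 under OICR623, Deferasirox and DFO, EPAS1 by 0.09, 0.09 and 0.10, and ARNT by 0.02, -0.01 and -0.03. A list of 10 HIF target genes was taken for comparison when earlier results of these data were known, and 9 were measured. All 9 were called and higher under each compound, against those same shares, with a median difference of 0.79, 1.14 and 1.22. Without the block 1, 4 and 4 of them were called, against 7, 43 and 45 of all genes. With the replicate number as block over all arrays 1, 5 and 7 of the 9 were called, against 10, 127 and 78 of all genes. On the 8 DFO and DMSO arrays alone that block called all 9 under DFO, against 619 of all genes. ADM, a secreted peptide, changed most of them, with a rise of 1.78, 2.20 and 2.15. VEGFA, an angiogenic factor, rose by 1.02, 1.76 and 1.69, and NDRG1, a gene of the stress response to low iron and oxygen, by 1.21, 1.50 and 1.32. The BHLHE40 differences of 1.43, 1.67 and 1.59 thus lay above the median of these 9 and below ADM under each compound.

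The 5 genes most like BHLHE40 over the 13 level-centred arrays were ARRDC3 (Pearson r 0.998), CHST15 (0.996), EGLN3 (0.996), ERRFI1 (0.995) and ADM (0.994). The steps between the groups carry these values, and the points share arrays and groups. The choice by likeness on these arrays fixes the direction of the genes' differences, so those are a description with no test. ARRDC3, an alpha-arrestin, differed by 2.20, 2.57 and 2.34 under OICR623, Deferasirox and DFO, and EGLN3, a HIF prolyl hydroxylase, by 1.71, 1.94 and 1.98. The 5 genes most like BHLHE41 were RETREG1 (0.964), MIR17HG (0.958), TIMM8B (0.952), CPSF7 (0.945) and ZBED3 (0.92). Their differences were small: ZBED3 differed by -0.23, -0.17 and -0.15 under OICR623, Deferasirox and DFO, and MIR17HG, the host transcript of a microRNA cluster, by -0.26, -0.18 and -0.20. For PER2, chosen for this after its values were seen, they were PAX8-AS1 (0.964), CREB3L2 (0.948), SGPP2 (0.948), RHBDF2 (0.943) and HSPA5 (0.943). Under OICR623, Deferasirox and DFO, PAX8-AS1 differed by 0.0074, 0.41 and 0.06, and HSPA5, an endoplasmic reticulum chaperone, by 0.05, 0.28 and 0.03. Without the block the Deferasirox differences of these 2 were 0.24 and 0.18.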

How the data were processed

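The authors deposited log2 signals, a scale read from the range of the values, with 1 signal for each cluster and array; the submitters' processing notes name GCRMA and limma, with no version, order or role, and the genome build is not given in the sources used here. Of 32321 transcript clusters, 19158 carried 1 gene symbol, 1388 several and 11775 none, and 18404 genes remained, each by its row of highest mean. No filter on low values was applied, and precision is limited by the number of arrays. The series text calls the replicates independent experiments.

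Differences were fitted with limma 3.58.1 in R 4.3.3, with 1 mean per group over all 13 arrays, the array-median level as a block (medians split where neighbours lay over 0.05 apart) and empirical Bayes moderation. Genes were called at an adjusted p under 0.05. The script was tested on simulated data. The 10 genes, the lists, the block and the rule for named genes were chosen with earlier results of these data known. Named were the 10 genes, called genes of both clock lists, HIF1A, EPAS1, ARNT, VEGFA and NDRG1, the 5 genes most correlated with BHLHE40 and BHLHE41, and the called gene with the largest rise and fall in each other list.

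Replicate numbers were checked as pairs by the correlation, across genes, of deviations from group means. For DFO with DMSO it was 0.945, 0.662, 0.738 and 0.788 for numbers 1 to 4. On the data alone, these were treated as pairs in the alternatives with the replicate number as block. The main fit takes the level as block and does not pair them. With the level removed it was -1, 0.0813, 0.125 and -0.533, the first fixed because the high level holds only 2 arrays. Arrays of the same number in these groups share a level, so a pairing and a shared level cannot be told apart. With the level kept, it was 0.291 and -0.00858 for OICR623 and -0.0575, 0.333 and -0.324 for Deferasirox. These were not treated as pairs, apart from the replicate block over all arrays. OICR623 1, Deferasirox 1 and Deferasirox 3 lay at another level than the DMSO array of their number. That block therefore does not remove the level from their differences. Alternatives were no block, the replicate number as block, arrays centred on their medians, the middle level alone, each array left out, other rows per gene, a filter on low signal and a variance trend. Upstream sequences came from RefSeq (GRCh38.p14).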

Additional observations from a re-analysis of the deposited data

Results flagged for a closer look

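In groups of 4 arrays, 1 array stood apart from the other 3 by Dixon's test in 6 of 20 groups tested (10 genes in DFO and in DMSO). The 10 genes were read on the same arrays, so the 20 groups are not independent and are not set against chance. All 6 values came from the arrays of the high level, DFO 1 and DMSO 1, which already stood apart by their medians. BHLHE40 had 11.48 on DFO 1, against 10.91 to 10.99 on the other DFO arrays, and 10.07 on DMSO 1, against 9.22 to 9.36 on the other DMSO arrays. CRY1 had 9.11 on DFO 1, against 7.89 to 7.96, and 9.19 on DMSO 1, against 7.80 to 7.97. PER3 had 8.44 on DFO 1, against 7.73 to 7.84, and NR1D2 had 10.24 on DFO 1, against 8.95 to 9.06.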

How the results depend on the processing

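Over all alternatives and single genes, 1343 differences kept their direction and their side of the threshold, 101 lost a call, 7 gained one, 12 without a test moved by over 1 SD and 63 changed sign. The 1343 include genes called in neither fit and differences without a test that moved by under 1 SD. The call of CRY2 under Deferasirox was kept in 3 of 21 alternatives, and that of NR1D2 under DFO in 7 of 22. The number of genes called followed the block. For OICR623, Deferasirox and DFO against DMSO it was 135, 1074 and 847 with the level as a block, 7, 43 and 45 without a block, and 10, 127 and 78 with the replicate number as block. It was 19, 170 and 154 with arrays centred on their medians and 81, 326 and 274 in the middle level alone. For OICR623 against DFO, OICR623 against Deferasirox and Deferasirox against DFO it was 31, 16 and 8 with the level as a block, 0 in each without a block or with the replicate block, and 9, 0 and 0 with centred arrays. The middle level alone gave 7 for OICR623 against Deferasirox and 0 for Deferasirox against DFO. A variance trend gave 338 for OICR623 against DMSO, and 58, 119 and 85 between compounds. With the least bright genes left out the count was 203 for OICR623 against DMSO, 59 for OICR623 against Deferasirox and 35 for Deferasirox against DFO, and with every transcript cluster tested it was 74 for OICR623 against DMSO. With 1 array left out it was 33 to 173, 546 to 1066 and 494 to 846 against DMSO, and 8 to 32, 0 to 26 and 0 to 10 between compounds. The cause of these shifts was not tested.

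Of the 10 genes, 2, 4 and 3 were past the threshold against DMSO under OICR623, Deferasirox and DFO with the level as a block. BHLHE40 and BHLHE41, chosen by these differences, stand in all such counts as a description, and 0, 2 and 1 of the other 8 were called, against 0.734, 5.84 and 4.6 percent of all genes. Without a block limma called 0 of the other 8 under each compound, against 7, 43 and 45 of all genes. With the replicate block it called 0, against 10, 127 and 78. With centred arrays it called 0, 1 and 0 of these 8, against 19, 170 and 154 of all genes. In the middle level it called 0, 1 and 0, against 81, 326 and 274. Of the 10, without a block 0, 1 and 1 were past the threshold, with the replicate block 0, 1 and 1, with centred arrays 1, 2 and 1, and in the middle level 2 and 1 under Deferasirox and DFO. With 1 array left out it was 1 to 2, 3 to 4 and 2 to 3. Between compounds it was 0, 1 and 1, and 0 in each without a block, with the replicate block, with centred arrays and in the middle level, and 0 to 1 for the last 2 with 1 array left out. The replicate block on the 8 DFO and DMSO arrays alone gave 619 genes, 2 of the 10 and 0 of the 8 clock genes listed by name.

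Signs changed as follows. The replicate block here joins OICR623 1, Deferasirox 1 and Deferasirox 3 to DMSO arrays of another level. For OICR623 against DMSO, PER2 was 0.015 and CRY2 0.0044 with centred arrays, CRY2 was 0.014 in the middle level, and with 1 array left out CRY1 ran over -0.17 to 0.073 and CRY2 over -0.029 to 0.012. For Deferasirox against DMSO without a block, PER3 was -0.0076, CRY1 -0.087 and NR1D1 -0.055, each above the median of all genes there, -0.15. With the replicate block PER1 was -0.10, PER3 -0.10, CRY1 -0.21, CRY2 -0.048 and NR1D1 -0.17. For DFO against DMSO, CRY2 was 0.012 with centred arrays, and with 1 array left out CRY1 ran over -0.035 to 0.032, CRY2 over -0.026 to 0.011 and NR1D1 over -0.022 to 0.037. For OICR623 against DFO, PER1 was 0.010 in the middle level. Without a block PER3 was -0.044, CRY2 -0.089 and NR1D2 -0.084, each above the median of all genes there, -0.11. In the same comparison PER3 was -0.23, CRY2 -0.26, NR1D2 -0.36 and CLOCK -0.23 with the replicate block. CRY2 was -0.0072 and NR1D2 -0.0021 with centred arrays. With 1 array left out PER1 ran over -0.089 to 0.040, PER3 over -0.037 to 0.038, CRY1 over -0.17 to 0.070 and CRY2 over -0.018 to 0.018. For OICR623 against Deferasirox, NR1D2 was -0.068 with the replicate block and -0.056 to 0.13 with 1 array left out. For Deferasirox against DFO without a block, BHLHE40 was -0.089, CRY1 -0.091, NR1D1 -0.068 and NR1D2 -0.17. The median of all genes there was -0.16, and of these genes only NR1D2 lay below it. With the replicate block BHLHE40 was -0.13, PER1 -0.018, CRY1 -0.22, CRY2 -0.041, NR1D1 -0.18 and NR1D2 -0.29, with centred arrays BHLHE41 was 0.070 and NR1D2 -0.027, and BHLHE41 was 0.0037 in the middle level and -0.033 to 0.029 with 1 array left out. BHLHE40 above and BHLHE41 below DMSO held under all of these alternatives, over 1.12 to 1.71 for BHLHE40 and -0.57 to -0.19 for BHLHE41. Of the DFO calls of NR1D2, NFIL3, HEY2, DUSP1 and SGK1, the replicate block on the 8 arrays removed those of NR1D2 and NFIL3. The alternatives for BMAL1, NFIL3, HEY2, DUSP1, SGK1 and TSC22D3 were chosen after seeing the data. The table used here gives no background level, so how far a dim gene stood above it was not analysed here.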
